A study of Mus musculus with 2 samples.

Results

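The genes described here are 6 that vascular and tumour cells can use to restrain immune cells, namely the checkpoint ligands Cd274, Lgals9, Pvr and Cd47 and the adenosine-generating enzymes Nt5e and Entpd1. They were chosen by name, as genes of these pathways. All 6 were among the 17139 genes listed for both libraries. Levels are given as CPM, counts of a gene per 1000000 UMIs (unique molecular identifiers, each standing for 1 captured transcript), and all 6 reached 5 CPM in at least 1 library. In the data, Cd274 RNA was several-fold higher in ECs of the cGAMP-injected tumour, Lgals9, Nt5e and Cd47 RNA were moderately higher, and Pvr and Entpd1 RNA were slightly lower.

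Checkpoint ligands sit on or leave a cell and engage receptors that dampen leucocytes. Cd274 encodes PD-L1, which binds PD-1 on T cells, Lgals9 encodes galectin-9, a lectin that binds TIM-3, Pvr encodes CD155, which binds TIGIT and CD96 as well as the activating receptor CD226, and Cd47 encodes the ligand of SIRPα that restrains phagocytes. Entpd1 encodes CD39, which removes phosphates from extracellular ATP and ADP to give AMP, and Nt5e encodes CD73, which turns AMP into adenosine, a nucleoside that dampens T cells and also tightens the endothelial barrier. Interferons are known to induce Cd274 in many cell types, and extracellular ATP is a danger signal that CD39 and CD73 together remove.

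Each library was made from ECs sorted as live CD31+ CD45- cells from a subcutaneous tumour of LLC, a Lewis lung carcinoma line, grown in an adult C57BL/6 mouse, which the methods describe as male, C57BL/6 J and 8 to 9 weeks old. The tumour of 1 mouse received an injection of 14 µg of cGAMP, the cyclic dinucleotide that binds STING, in 70 µl, and that of the other received 70 µl of PBS. The methods place sampling 24 h after injection whereas 1 legend gives 6 h, and the methods and the labels name different versions of the droplet kit. With 1 mouse and 1 library per condition, the treatment, the mouse and the library cannot be told apart, no test was possible, and every interval below is a 95% interval that covers counting error only.

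The PBS library held 2517 cells with 92081146 UMIs (median 29780 per cell) and the cGAMP library 1340 cells with 63366746 UMIs (median 41178 per cell), and 1 cell barcode occurred in both. All 10 endothelial markers were present in both libraries. The summed level of the 15 macrophage markers was 66.3 CPM in the PBS library and 137 CPM in the cGAMP library, with all 15 higher in the latter and none at 0, and Cd14, a gene that also led the stalk-like ECs, gave 32.5 CPM of the first sum and 67.9 CPM of the second. The 5 neutrophil markers summed to 0.847 and 17.3 CPM (Retnlg was at 0 in the PBS library), and Ptprc, the pan-leucocyte gene that the sort selects against, to 0.250 and 0.600 CPM. Cells fell into 8 clusters. Of these, 5 met the marker rule for a name. They were a large tip-like cluster led by Gal (718 PBS and 303 cGAMP cells), a small tip-like cluster led by Bnip3, Ankrd1 and other hypoxia genes (49 and 23), an arterial cluster led by Gja5 (615 and 255), a stalk-like cluster led by Ackr1 and Selp (331 and 325) and a proliferative cluster led by Ube2c (483 and 185). The other 3 were left unnamed. The largest was led by Ung, Hells and Mcm5 (210 and 142), of which Mcm5 is also a proliferative marker. Another was led by Slc6a6 and Lpl (64 and 54), with both arterial and capillary markers. The last was led by Igfbp5 and Ctsh (47 and 53). It had 12 of 15 stalk-like markers raised, against 10 in the stalk-like cluster, but none among its leading genes. The name proliferative below thus covers the Ube2c-led cluster only, and the name stalk-like the Ackr1-led cluster only.

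The promoters of Lgals9, Cd274 and Cd47 are shown because these were the 3 members whose RNA was higher in cells rich in interferon-response RNA in both libraries, as described further on. Sequences are from RefSeq on GRCm38.p6, run 5′ to 3′ on the strand of the gene from 250 bases before to 50 bases after a start site, and capitals mark matches, on either strand, to the interferon-stimulated response element (2 copies of GAAA separated by any 2 bases) or to the cores ACGTG and GCGTG that hypoxia-inducible factors bind. None of the windows of the 5 genes searched held the STAT-type palindrome TTCNNNGAA.
Lgals9, chr11:78984875-78985174, minus strand: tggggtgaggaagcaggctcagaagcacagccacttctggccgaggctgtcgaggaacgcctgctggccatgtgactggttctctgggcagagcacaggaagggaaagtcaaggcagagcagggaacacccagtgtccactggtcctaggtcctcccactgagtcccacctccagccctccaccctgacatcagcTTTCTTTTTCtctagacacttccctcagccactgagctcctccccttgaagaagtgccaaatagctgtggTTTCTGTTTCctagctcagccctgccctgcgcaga
Cd274, chr19:29367188-29367487, plus strand: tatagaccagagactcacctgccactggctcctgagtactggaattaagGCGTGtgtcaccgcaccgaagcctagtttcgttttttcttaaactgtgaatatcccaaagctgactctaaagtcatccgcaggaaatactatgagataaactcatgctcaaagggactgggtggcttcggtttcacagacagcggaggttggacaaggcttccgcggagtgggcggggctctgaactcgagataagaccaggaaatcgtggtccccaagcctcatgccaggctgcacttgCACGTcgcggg
Cd47, chr16:49855404-49855703, plus strand: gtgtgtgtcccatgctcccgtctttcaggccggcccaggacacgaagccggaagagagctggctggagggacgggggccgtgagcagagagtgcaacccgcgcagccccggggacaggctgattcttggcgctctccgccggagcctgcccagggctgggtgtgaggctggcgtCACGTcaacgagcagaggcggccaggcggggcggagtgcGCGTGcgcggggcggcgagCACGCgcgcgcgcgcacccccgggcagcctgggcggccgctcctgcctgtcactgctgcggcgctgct
The Lgals9 window held 2 response-element matches, which begin 55 bases upstream and at base 16 downstream of the start site. Of 32851 mouse promoter windows of the same length, 3.44% held at least 1 such match and 0.225% held 2 or more. The Cd274 window held none, with 1 match to ACGTG and 1 to GCGTG, cores that 19.6% and 32.4% of all windows hold. The Cd47 window, the first of a pair of start sites 7 bases apart, had no response-element match and 3 matches to the hypoxia cores. Among the others, the Nt5e window and 1 of the 2 Entpd1 windows each had 1 GCGTG match, and the second Entpd1 window had none of the motifs. A match is a description of the letters and not a site of binding, and elements that lie outside a window are not seen by it. Pvr was not among the promoters used.

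Cd274 (PD-L1) lies at chr19:29367455-29388095 on the plus strand of GRCm38, with 1 annotated transcript. It counted 545 UMIs in the PBS library, or 5.92 CPM (5.43 to 6.44), and 1400 UMIs in the cGAMP library, or 22.1 CPM (21.0 to 23.3). The level in cGAMP-treated tumour ECs was 3.73-fold that in PBS-treated tumour ECs (3.38 to 4.13), with a log2 ratio of 1.90. Among the 9509 genes that reached 5 CPM in a library, 53 had a higher ratio. Cd274 was the only member past 2-fold in either direction, against 1.82% of those 9509 genes at least 2-fold higher and 1.70% at least 2-fold lower. By counting error alone 4 members were higher and 2 lower, but at this depth so were 31.1% and 48.0% of all genes.

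Lgals9 (galectin-9), at chr11:78962974-78984946 on the minus strand, had 217 CPM in the PBS library (214 to 220) and 317 CPM in the cGAMP library (313 to 322), a fold of 1.46 (1.43 to 1.49). Cd47, at chr16:49800533-49915010 on the plus strand, had 406 CPM (402 to 411) and 544 CPM (539 to 550), a fold of 1.34 (1.32 to 1.36). Pvr (CD155), at chr7:19903578-19921160 on the minus strand, had 50.7 CPM (49.2 to 52.1) and 46.9 CPM (45.2 to 48.6), a fold of 0.925 (0.883 to 0.969). The difference in Pvr was thus small, and its log2 ratio of -0.11 was close to the median of all 9509 genes, which was -0.08.

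The enzymes differed in opposite directions. Nt5e (CD73), at chr9:88327197-88372092 on the plus strand, had 62.8 CPM in the PBS library (61.2 to 64.4) and 89.9 CPM in the cGAMP library (87.6 to 92.3), a fold of 1.43 (1.38 to 1.49). Entpd1 (CD39), at chr19:40612366-40741602 on the plus strand, had 193 CPM (190 to 196) and 168 CPM (165 to 171), a fold of 0.870 (0.849 to 0.891). There were therefore 0.325 Nt5e UMIs for each Entpd1 UMI in PBS-treated tumour ECs and 0.535 in cGAMP-treated tumour ECs, a change of 0.72 on the log2 scale in the balance of the enzyme that makes adenosine over the one that supplies its AMP. Annotated pseudogenes and a sense-intronic transcript overlap Entpd1 on its own strand, and reads from them cannot be told apart from Entpd1 where they share sequence.

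**Figure D1:**
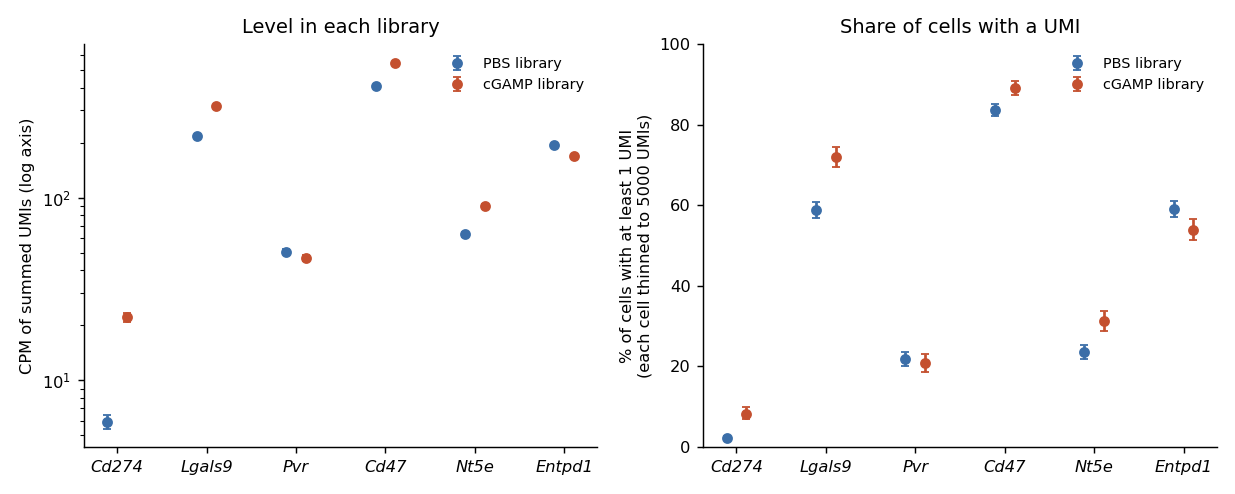
Level of each gene in the PBS and the cGAMP library in CPM of summed UMIs on a log axis (left) and percent of cells with at least 1 UMI after each cell was thinned to 5000 UMIs (right). Points are 1 library each and bars are 95% counting intervals, exact Poisson on the left and exact binomial on the right; Cd274 stands lowest and differs most, from 5.92 to 22.1 CPM.

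In single cells Cd274 was sparse and the other genes were common. After thinning to 5000 UMIs, which left 2447 PBS and 1327 cGAMP cells, 2.17% of PBS cells (1.63 to 2.82) and 8.29% of cGAMP cells (6.86 to 9.90) had a Cd274 UMI, or 9.81% and 34.2% without thinning. Lyz2, a macrophage gene that ECs should lack, gave a background of 1.80% (1.31 to 2.41) and 5.65% (4.47 to 7.03) in the same thinned cells, or 13.5% and 38.4% without thinning, above the unthinned shares of Cd274. By its share of thinned cells Cd274 was thus not clearly above Lyz2 in PBS-treated tumour ECs, and in cGAMP-treated tumour ECs the intervals overlapped at the edge. The background depended on the gene chosen. Ptprc, C1qa, Tyrobp, Fcer1g and S100a8 were lower than Lyz2, at 0.12% (S100a8) to 1.72% (Fcer1g) of thinned PBS cells. In thinned cGAMP cells they were at 0.08% (Ptprc) to 3.01% (Fcer1g). The fibroblast gene Col3a1 was at 2.37% of PBS and 0.53% of cGAMP cells. The thinned share was 58.8% and 72.0% for Lgals9, 83.7% and 89.1% for Cd47, 23.6% and 31.2% for Nt5e, 59.1% and 54.0% for Entpd1, and 21.8% and 20.8% for Pvr. Only for Pvr did the intervals of the libraries overlap.

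Cd274 RNA was concentrated in few cells. The 26 PBS cells with the most Cd274 UMIs, 1% of the library, held 43.5% of its Cd274 UMIs with 5 to 22 UMIs each, and the top 14 cGAMP cells held 22.2% with 13 to 58 each. The same top 1% held between 4.30% and 7.42% of the UMIs of each other member in the PBS library and between 4.30% and 7.06% in the cGAMP library. Without thinning, only 0.79% of all PBS and 2.16% of all cGAMP cells had a Ptprc UMI, so its lack in few cells says little. None of the 26 and 14 cells with the most Cd274 had a Ptprc UMI. Their summed endothelial markers were at 5425 and 5625 CPM, against 5295 and 6313 CPM over all cells of the respective library, and their macrophage markers other than Cd14 at 37.9 and 53.1 CPM, against 33.8 and 68.7 CPM. Their 34 listed interferon-response genes summed to 16486 and 19956 CPM, against 2517 and 7448 CPM over all cells. Of the 26 PBS cells 17 belonged to the Gal-led tip-like cluster, as did 7 of the 14 cGAMP cells.

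The level of the members was then compared across the 8 clusters. Cd274 was higher in the cGAMP library in all 8, each with an interval above 0. Counts were low in the Igfbp5-led cluster, with 1 PBS UMI and 15 cGAMP UMIs (log2 ratio interval 0.74 to 8.83). They were also low in the Slc6a6-led cluster, with 6 PBS and 27 cGAMP UMIs. In stalk-like ECs, whose leading genes Selp and Ackr1 are known from venules that admit leucocytes, Cd274 had 4.88 CPM in the PBS library (3.47 to 6.67, 39 UMIs) and 37.2 CPM in the cGAMP library (34.1 to 40.5, 525 UMIs), with a log2 ratio of 2.93 (2.46 to 3.44). In the Gal-led tip-like cluster it had 9.81 CPM (8.71 to 11.0) and 25.6 CPM (23.2 to 28.3), with a log2 ratio of 1.39 (1.16 to 1.61). Proliferative ECs had the lowest cGAMP level, 8.41 CPM (6.83 to 10.2), from 3.50 CPM (2.77 to 4.36). By summed UMIs, Gal-led tip-like ECs thus lay above stalk-like ECs in the PBS library and below them in the cGAMP library. The intervals of the ratios of these 2 states did not overlap, but they do not cover the concentration of Cd274 UMIs in few cells. The PBS order was not seen in the share of thinned cells with a Cd274 UMI. That share was 3.09% of Gal-led tip-like and 3.13% of stalk-like cells in the PBS library. In the cGAMP library it was higher in stalk-like ECs, as was the summed level. The highest cGAMP level, 66.5 CPM (51.1 to 85.0), was in the Bnip3-led tip-like cluster, but it rested on 63 UMIs in 23 cells, of which 1 cell gave 25.4%.

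Lgals9 was also higher in the cGAMP library in all 8 clusters. Its log2 ratio was 0.24 (0.17 to 0.30) in arterial ECs, where it went from 267 to 315 CPM. It was 0.75 (0.71 to 0.80) in the Gal-led tip-like cluster, from 252 to 425 CPM, and 0.88 (0.79 to 0.97) in stalk-like ECs, from 155 to 286 CPM. Arterial and Gal-led tip-like ECs had the 2 highest levels in the PBS library, and the Bnip3-led and Gal-led tip-like clusters, whose intervals overlapped, had the 2 highest in the cGAMP library. The ratio was widest in the Bnip3-led cluster, at 1.69 (1.44 to 1.94), from 137 to 441 CPM.

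**Figure D2:**
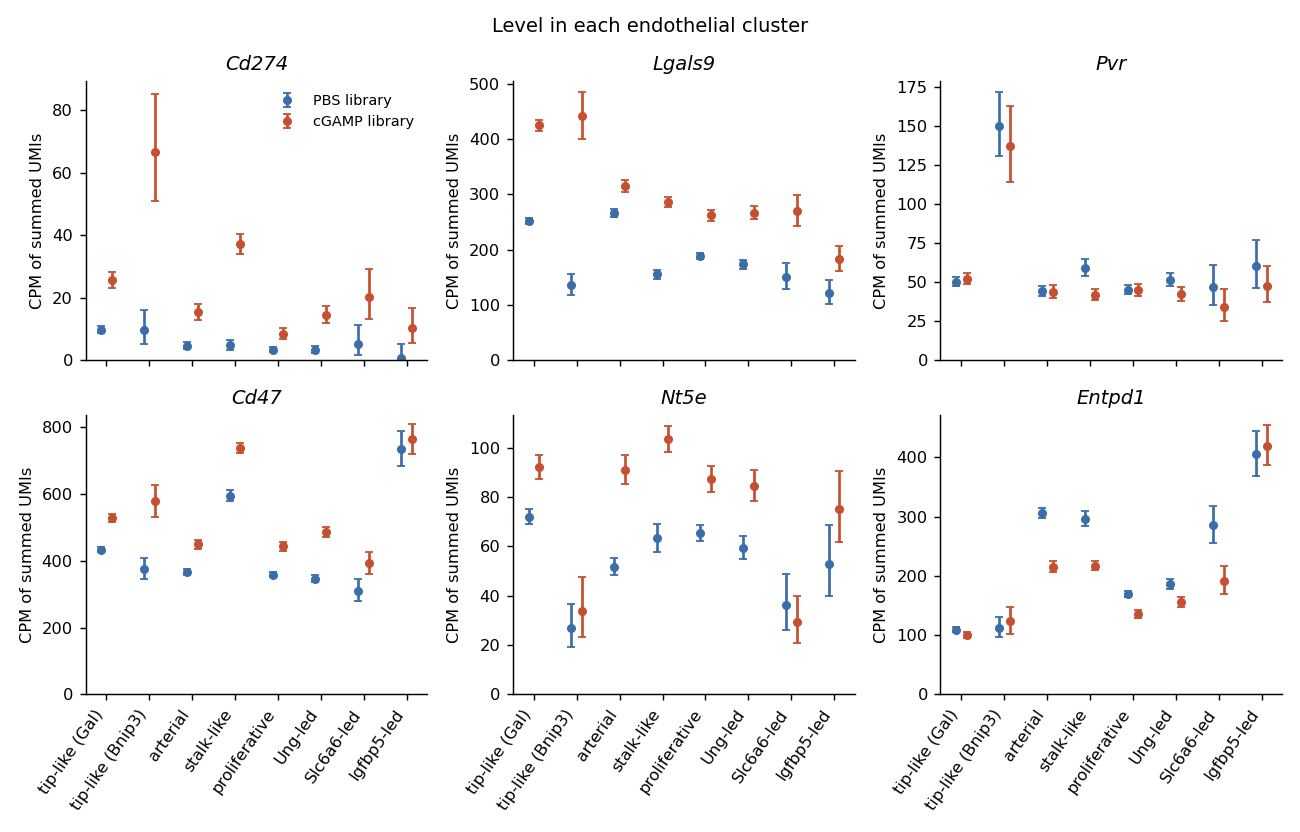
Level of each gene in the 8 endothelial clusters in CPM of summed UMIs, PBS library in blue and cGAMP library in red, with exact Poisson 95% intervals; each panel has its own axis from 0. Entpd1 and Cd47 are highest in the Igfbp5-led cluster, Pvr in the Bnip3-led tip-like cluster and Nt5e low in the Bnip3-led and Slc6a6-led clusters in both libraries.

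Cd47 differed more between clusters than between libraries. Stalk-like ECs had 595 CPM (579 to 613) in the PBS library and 737 CPM (723 to 752) in the cGAMP library, and the Igfbp5-led cluster 734 CPM (683 to 788) and 765 CPM (721 to 811). The other 6 clusters had 311 to 433 CPM in the PBS library and 392 to 578 CPM in the cGAMP library, so that both of the first 2 lay above all of them in either library. These 2 clusters also had the most macrophage markers, in a sum that includes Cd14, a leading gene of stalk-like ECs. The sums for PBS and cGAMP cells were 193 and 240 CPM in stalk-like ECs and 183 and 412 CPM in the Igfbp5-led cluster. The part of macrophage RNA in the Cd47 level was not tested. The log2 ratio between the libraries was 0.29 to 0.31 in tip-like (Gal-led), arterial, proliferative and stalk-like ECs, below the 0.42 of the whole libraries. It was 0.34 (0.14 to 0.53) in the Slc6a6-led and 0.06 (-0.07 to 0.19) in the Igfbp5-led cluster, and above 0.42 in the Ung-led (0.49, 0.43 to 0.56) and Bnip3-led clusters (0.62, 0.45 to 0.79). The stalk-like cluster, where Cd47 was high, made up 13.2% of PBS and 24.3% of cGAMP cells. With the proportions of the clusters held at their average the ratio of the libraries was 0.31.

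Pvr stood out in the Bnip3-led tip-like cluster, where it had 150 CPM (131 to 172) in the PBS library and 137 CPM (115 to 163) in the cGAMP library. No other cluster exceeded 60.5 CPM in the PBS library or 52.4 CPM in the cGAMP library, and in the order of levels the neighbours below the Bnip3-led cluster had overlapping intervals in both. That cluster held 49 PBS and 23 cGAMP cells, and its 15 listed hypoxia genes summed to 11308 and 8338 CPM against 2843 and 2516 CPM over all cells. Between the libraries, Pvr was lower beyond counting error in stalk-like ECs, from 59.3 to 42.2 CPM (log2 ratio -0.49, -0.67 to -0.31), and in the Ung-led cluster, from 51.7 to 42.3 CPM (-0.29, -0.49 to -0.09). In the other 6 clusters the interval included 0, with 45.4 and 45.0 CPM in proliferative ECs as an example.

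Nt5e was higher in the cGAMP library in 7 of 8 clusters, 6 of them with an interval above 0. Arterial ECs went from 51.7 CPM (48.4 to 55.1) to 91.0 CPM (85.3 to 97.1), with a log2 ratio of 0.82 (0.68 to 0.95), and stalk-like ECs from 63.2 CPM (57.8 to 68.9) to 103 CPM (98.1 to 109), with a log2 ratio of 0.71 (0.56 to 0.86). In the Gal-led tip-like cluster, which had the most Nt5e in the PBS library at 72.0 CPM, the ratio was 0.35 (0.26 to 0.45). The Bnip3-led cluster was low in both libraries with 26.8 CPM (19.0 to 36.6) and 33.8 CPM (23.1 to 47.7), as was the Slc6a6-led cluster with 36.1 CPM (26.0 to 48.7) and 29.1 CPM (20.7 to 39.8). The cluster with the highest hypoxia genes thus had the highest Pvr and the lowest or next to lowest Nt5e. These contrasts rested on the small clusters. Over the 5 largest clusters alone, a choice made after seeing the data, the log2 ratio of the highest over the lowest cluster, averaged over the libraries, was 0.36 in place of 1.88 for Pvr and 0.39 in place of 1.63 for Nt5e.

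Entpd1 varied widely between clusters. The Igfbp5-led cluster had the highest level, 405 CPM (368 to 446) in the PBS and 420 CPM (387 to 454) in the cGAMP library. The macrophage markers, again with Cd14 included, were at 183 and 412 CPM in that cluster and at 193 and 240 CPM in stalk-like ECs. In the other clusters they were at 36.2 to 107 and 73.1 to 189 CPM. Macrophages express Entpd1, and their part in this level was not tested. Arterial ECs (306 and 215 CPM), stalk-like ECs (297 and 217 CPM) and the Slc6a6-led cluster (286 and 192 CPM) followed, with overlapping intervals between neighbours in each library. The Gal-led tip-like cluster was lowest, with 109 CPM (106 to 113) and 99.7 CPM (94.8 to 105), and the Bnip3-led cluster overlapped it with 113 and 123 CPM. Entpd1 was lower in the cGAMP library in 6 of 8 clusters, each with an interval below 0, by -0.51 on the log2 scale in arterial ECs (-0.58 to -0.44) and by -0.13 in the Gal-led tip-like cluster (-0.22 to -0.04). In the Igfbp5-led and Bnip3-led clusters the ratios were 0.05 and 0.13 with intervals that included 0. With cluster proportions held, the ratio of the libraries was -0.36 in place of -0.20.

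**Figure D3:**
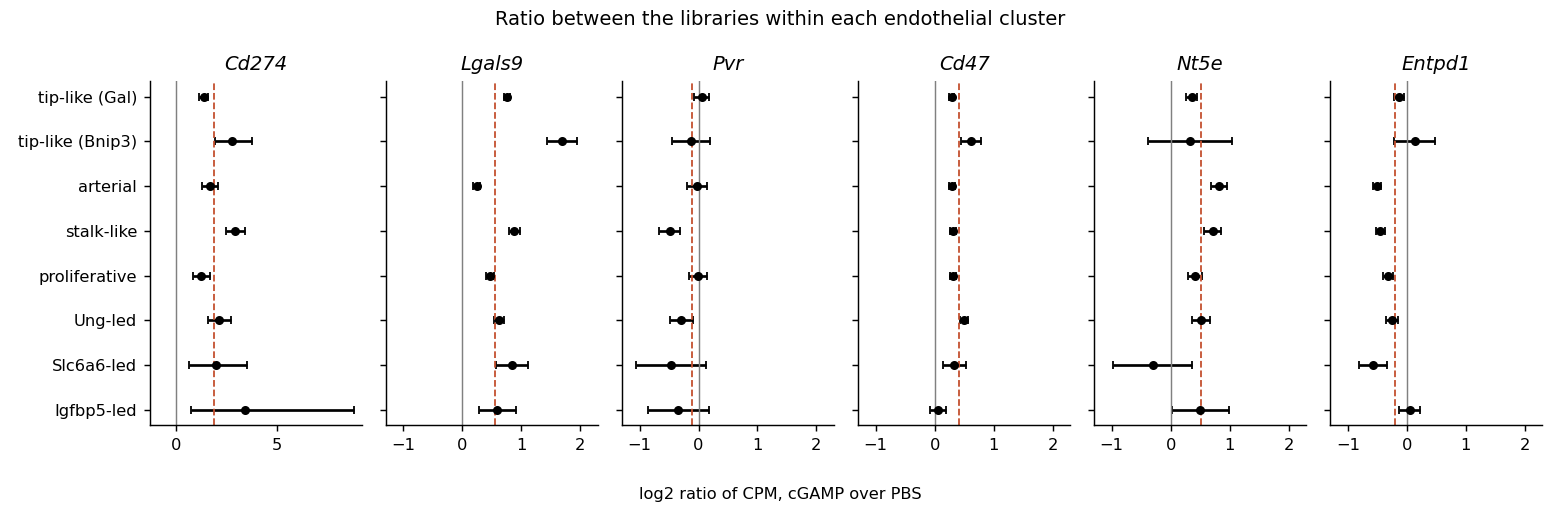
Log2 ratio of CPM, cGAMP over PBS, within each of the 8 clusters; points are the ratio of summed UMIs, bars its 95% counting interval, the grey line 0 and the dashed red line the ratio of the whole libraries. The Cd274 panel has a wider axis; its points and those of Lgals9 are all above 0, and those of Entpd1 lie below 0 in 6 clusters.

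The interferon programme was used to order cells within each library. Cells were ranked by the share of their UMIs that came from the 34 listed interferon-response genes, none of them a member, and cut into 4 equal bins, with median UMIs per cell of 28401 to 31123 in the PBS and 38614 to 45707 in the cGAMP library. Cd274 had 1.57, 1.77, 2.20 and 18.6 CPM from the lowest to the highest bin of PBS cells and 3.31, 6.55, 13.4 and 61.4 CPM in the cGAMP library. The highest bin of PBS cells had a Cd274 level above the first 3 cGAMP bins. Its list level of 5938 CPM lay between those of the second (4987 CPM) and the third (7742 CPM) cGAMP bins. That bin held 417 Cd274 UMIs, whereas the 26 PBS cells with the most Cd274 alone held 237, at a list level of 16486 CPM. Bin levels therefore do not compare cells of equal interferon-response RNA. Cd274 RNA was thus highest in the cells richest in interferon-response RNA in both libraries. The macrophage markers other than Cd14 showed no such order, at 31.7 to 35.9 CPM in the PBS and 63.5 to 72.9 CPM in the cGAMP library. The neutrophil markers were at 47.7 CPM in the highest cGAMP bin and at most 7.51 CPM in the others. When the cells with a UMI of Ptprc, Tyrobp, C1qa or S100a8 were left out, which brought the neutrophil markers of the highest cGAMP bin to 2.47 CPM, Cd274 was at 3.05 CPM in the lowest and 51.2 CPM in the highest cGAMP bin.

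Lgals9 and Cd47 were higher in each successive bin in both libraries. Lgals9 went from 132 to 360 CPM in PBS cells and from 221 to 446 CPM in cGAMP cells, log2 ratios of the highest over the lowest bin of 1.45 (1.39 to 1.51) and 1.02 (0.96 to 1.07). Cd47 went from 350 to 477 CPM and from 395 to 711 CPM, log2 ratios of 0.45 (0.40 to 0.49) and 0.85 (0.80 to 0.89). When the bins were cut within each cluster, so that clusters were equally represented in all 4, the ratios were 3.46 and 3.98 for Cd274, 1.32 and 0.94 for Lgals9 and 0.46 and 0.74 for Cd47.

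Nt5e, Entpd1 and Pvr did not order with the programme in this way. Nt5e had 55.8 to 71.6 CPM over the 4 PBS bins and 83.8 to 95.9 CPM over the 4 cGAMP bins, so that every cGAMP bin lay above every PBS bin. This included the lowest and the second cGAMP bins, whose interferon list levels (3192 and 4987 CPM) were below that of the highest PBS bin (5938 CPM). The lowest cGAMP bin was itself above the first 3 PBS bins in interferon-response RNA (893 to 1994 CPM), and the part of interferon in the Nt5e difference was not tested. Entpd1 had 164 to 208 CPM over the PBS bins and was lower at each step over the cGAMP bins, from 176 to 156 CPM. Pvr had 48.2 to 53.5 CPM and 42.8 to 53.3 CPM.

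**Figure D4:**
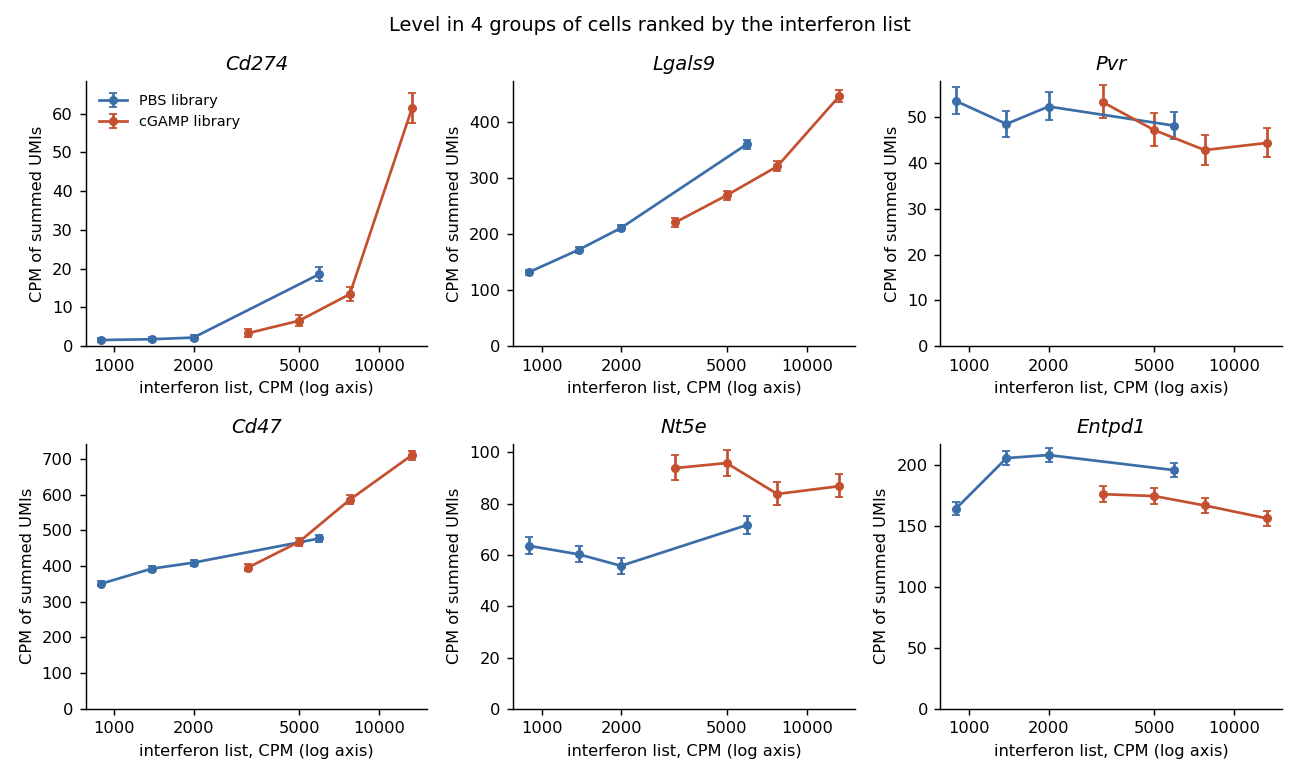
Level of each gene in 4 equal bins of cells per library, ranked by the share of UMIs from interferon-response genes; x, summed level of the interferon list in CPM on a log axis; y, level of the gene in CPM of summed UMIs from 0 with exact Poisson 95% intervals. Cd274, Lgals9 and Cd47 are higher in each successive bin of both libraries, whereas Nt5e lies at 83.8 to 95.9 CPM in all cGAMP bins and at 55.8 to 71.6 CPM in all PBS bins.

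Cells were ranked in the same way by 15 hypoxia genes, of which none is a member. Pvr was higher in each successive bin, from 45.8 to 61.4 CPM in PBS cells and from 37.7 to 59.6 CPM in cGAMP cells, log2 ratios of 0.42 (0.30 to 0.54) and 0.66 (0.51 to 0.82), and of 0.28 (0.16 to 0.40) and 0.38 (0.23 to 0.54) within clusters. Entpd1 was lower in the highest than in the lowest bin, 120 against 268 CPM in PBS cells and 126 against 184 CPM in cGAMP cells. Within clusters that difference was smaller in the PBS library, with a log2 ratio of -0.49 (-0.55 to -0.43), and was not seen in the cGAMP library, with -0.0012 (-0.08 to 0.08). For Nt5e, often listed as a hypoxia-inducible gene, the ratio was 0.24 (0.12 to 0.35) in PBS cells and 0.07 (-0.04 to 0.18) in cGAMP cells, and with bins cut within clusters it was 0.07 (-0.04 to 0.18) in PBS cells and 0.28 (0.17 to 0.39) in cGAMP cells, so that the library with an interval above 0 changed. Median UMIs per cell ranged from 24386 to 33168 over the PBS bins and from 35546 to 45707 over the cGAMP bins, and the neutrophil markers were at 48.0 CPM in the highest cGAMP bin.

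CD39 and CD73 act in sequence, so the cells that carry UMIs of both were counted. Of the thinned cells, 13.2% of PBS cells (11.9 to 14.6) and 17.8% of cGAMP cells (15.8 to 19.95) had UMIs of both Nt5e and Entpd1. The product of the single shares was 13.9% and 16.8%, inside both intervals, and 13.6% and 16.9% when it was formed within clusters. The RNAs of the enzymes were thus found together about as often as their separate shares give. Of the other 14 pairs, Cd274 with Pvr lay proportionally farthest from the product in the cGAMP library, with 2.56% of cells (1.78 to 3.56) against 1.72%, but the product formed within clusters was 1.85%, inside the interval.

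The genes whose pattern was most like that of each member were sought among the 6045 genes that reached 20 CPM in a library, by Pearson's r of log2(CPM + 1) over 16 profiles, 8 clusters in each library, which share their libraries and depth. For Cd274 they were Ifi207 (r = 0.96), Trafd1 (0.95) and Apol10b (0.94), and for Lgals9 Mvb12a (0.91), Ifi206 (0.91) and Daxx (0.91). For Cd47 they were Neurl3 (0.95), Nfkbia (0.92), which encodes the inhibitor of NF-κB, and Casp4 (0.91), which encodes caspase-11. For Pvr they were Ube2j1 (0.96), Smurf1 (0.95) and Ero1l (0.94), an oxidase of the endoplasmic reticulum. Pvr had 150 and 137 CPM in the small Bnip3-led cluster, of which Ero1l was a leading gene, and at most 60.5 and 52.4 CPM elsewhere. The profiles of that cluster may set much of the r values for Pvr, which was not tested. For Entpd1 the most similar genes were Ptprb (0.96), the endothelial phosphatase VE-PTP, Slc12a7 (0.95) and Itgb4 (0.95). The likeness was lowest for Nt5e, with Nrros, Hoxb7 and Dph6 at 0.88 each.

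Other genes of the same pathways were then examined from lists chosen by topic. Of 29 further checkpoint ligands, 26 were listed and 11 reached 5 CPM. Of these 1 was at least 2-fold higher and none was 2-fold lower, 6 were higher and 5 lower by counting error, and the median log2 ratio was 0.25 beside -0.08 for all genes. H2-T23, which encodes Qa-1, the ligand of the inhibitory receptor NKG2A on NK and T cells, went from 47.4 CPM (4369 UMIs) to 341 CPM (21613 UMIs), with a log2 ratio of 2.85 (2.80 to 2.89), and was higher in all 8 clusters. It has similar copies between which the counting may divide reads. Lgals1, which encodes galectin-1, was lower, from 873 to 466 CPM (log2 ratio -0.90, -0.92 to -0.88), the opposite direction to Lgals9, as was Vsir, which encodes VISTA, from 30.8 to 16.4 CPM (-0.91, -1.01 to -0.80), and both were lower in all 8 clusters. Cd40, a costimulatory receptor, was higher at 6.19 against 3.41 CPM (0.86, 0.64 to 1.08). The second PD-1 ligand, Pdcd1lg2, had 0 UMIs in the PBS and 3 UMIs in the cGAMP library, and the costimulatory ligands Cd80 and Cd86 had 5 and 0 UMIs in the PBS and 7 and 7 UMIs in the cGAMP library, so that of the PD-1 ligands only Cd274 was counted above 3 UMIs in these libraries.

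**Figure D5:**
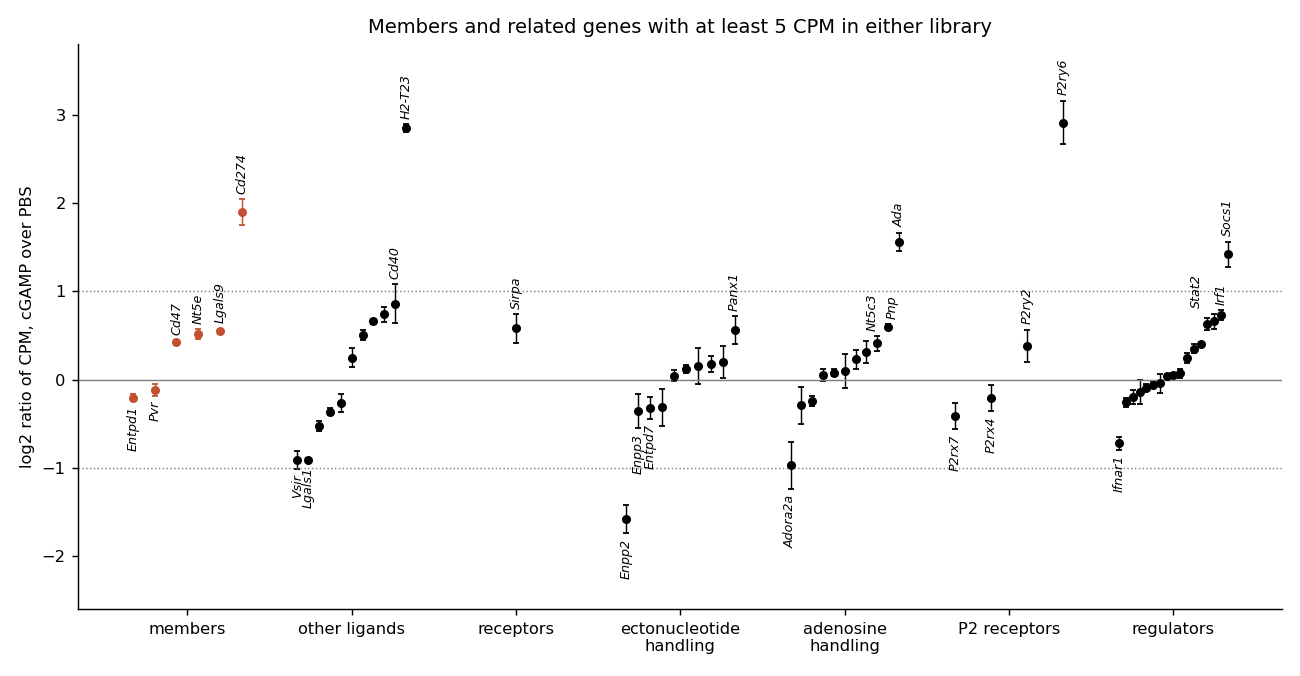
Log2 ratio of CPM, cGAMP over PBS, with 95% counting intervals, of the 6 members (red) and of those genes of each related list that reached 5 CPM (black); dotted lines mark 2-fold. Named points are the members and the up to 4 genes of each list that are farthest from 0; Cd274, H2-T23, Ada, P2ry6 and Socs1 lie above 2-fold and Enpp2 below.

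Of 12 receptors for these ligands 7 were listed, and 1 reached 5 CPM, Sirpa, the receptor of CD47. Its level was 6.72 CPM in the PBS and 10.1 CPM in the cGAMP library, and it was higher in only 4 of 8 clusters. Sirpa is also a gene of macrophages, whose markers were higher in the cGAMP library, and their part in this value was not tested. Pdcd1, which encodes PD-1, had 0 UMIs and 10 UMIs.

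Among other genes listed under nucleotide enzymes and release, 10 of 18 were listed at 5 CPM or more, with none at least 2-fold higher and 1 at least 2-fold lower (median log2 ratio 0.08). The list was not limited to enzymes that act on extracellular ATP or AMP. Enpp2, which encodes autotaxin, went from 18.8 to 6.28 CPM, with a log2 ratio of -1.58 (-1.74 to -1.42), and was lower in all 8 clusters. Panx1, a channel that releases ATP, had 6.95 and 10.3 CPM (0.56, 0.40 to 0.72), while Entpd7 (15.6 and 12.6 CPM) and Enpp3 (7.09 and 5.54 CPM) were lower.

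Among genes listed under adenosine handling, 11 of 17 reached 5 CPM, with 1 at least 2-fold higher and none at least 2-fold lower (median log2 ratio 0.10). The list was not limited to genes that act on adenosine itself. Ada, the deaminase that turns adenosine into inosine, went from 12.5 CPM (1151 UMIs) to 36.9 CPM (2337 UMIs), with a log2 ratio of 1.56 (1.46 to 1.66), and was higher in all 8 clusters. Pnp, which acts on inosine in the next step, went from 194 to 294 CPM (0.60, 0.57 to 0.63), also in all 8. Adora2a, the adenosine receptor that dampens T cells, was lower at 2.56 against 5.01 CPM (-0.97, -1.24 to -0.71), and Nt5c3, a cytosolic nucleotidase, was higher at 36.5 against 27.4 CPM. Nt5e, which makes adenosine, and Ada, which removes it, were thus both higher in the cGAMP library.

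Of 8 ATP, ADP and UDP receptors 4 reached 5 CPM (median log2 ratio 0.09). P2ry6, the receptor for UDP, went from 1.77 CPM (163 UMIs) to 13.3 CPM (841 UMIs), with a log2 ratio of 2.91 (2.66 to 3.16), and was higher in 7 of 8 clusters; it is also a gene of macrophages, whose part was not tested. P2ry2 had 5.71 and 7.46 CPM, and the ATP-gated channels P2rx7 (12.3 and 9.25 CPM) and P2rx4 (10.5 and 9.11 CPM) were lower.

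Of 19 known regulators of Cd274 and Cd47, 17 reached 5 CPM, with 1 at least 2-fold higher and none at least 2-fold lower (median log2 ratio 0.05). Socs1, the feedback inhibitor of interferon signalling, went from 6.64 to 17.8 CPM (1.42, 1.28 to 1.56). Irf1, a transcription factor through which interferons act on Cd274 (56.8 and 94.5 CPM, 0.73), and Stat2, a factor of type I interferon signalling that is also in the interferon list (24.1 and 38.1 CPM, 0.66), were higher in all 8 clusters, whereas Ifnar1, a chain of the type I interferon receptor, was lower in all 8 (56.0 and 34.1 CPM, -0.72).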

How the data were processed

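ECs of 2 tumours were profiled by droplet scRNA-seq, 1 library per condition, grouped by the treatment in the labels. According to the submitters' processing notes the authors used Cell Ranger 3.0.0, mm10 and Seurat 3.1.1, and per the methods they removed cells with fewer than 500 genes or over 10% mitochondrial UMIs, genes in fewer than 3 cells and non-endothelial clusters. The deposited values are the natural log of 1 plus UMIs per 10000. They were turned back into UMI counts, of which 100% came within 0.01 of a whole number. UMIs were summed per library, cluster or score bin and given as CPM with exact Poisson 95% intervals. Ratios have exact conditional binomial intervals, computed with scipy 1.17.1, and shares have Clopper-Pearson intervals. The ratio intervals were checked on simulated Poisson counts, the spread they assume, so the check does not cover uneven counts between cells. With 1 library per group no model was fitted and no p-value computed. Clustering used Seurat 5.3.0 (R 4.3.3) on 2201 of 2500 variable genes (the members and genes 2-fold different between the libraries were left out), 30 principal components and resolution 0.5. No doublets were removed. A cluster was named with at least 3 markers raised 2-fold, more of them among its 10 leading genes than of any other state, and at least 2 times as many raised markers as the next state, thresholds set after the clusters were seen, so names need not be those of the study. Named genes were the members, the 4 genes of each list farthest from 0 among those with at least 5 CPM, the 3 genes most like each member, markers of other cells, and the leading genes of clusters. Pdcd1lg2, Cd80, Cd86 and Pdcd1 were named after their values were seen. An item of the regulator list is not reported here. The members and lists were chosen with earlier results of these data known. Coordinates of genes follow GENCODE vM21 (GRCm38). Alternatives covered the scaling, the cells kept, the depth, cluster proportions and the clustering.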

Additional observations from a re-analysis of the deposited data

Results flagged for a closer look

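For 4 results the difference between the highest and the lowest bin of cells of a score lay on opposite sides of 0 in the 2 libraries, each beyond counting error. With 1 library per condition the difference between the libraries was not tested, and no explanation was weighed. For Cd274 and the hypoxia genes, the log2 ratio of the highest over the lowest bin was 0.65 for PBS and -0.78 for cGAMP cells, a difference of 1.43, but with bins cut within clusters it was -0.50 and -0.92, on the same side. For Entpd1 and the interferon-response genes it was 0.25 and -0.17, a difference of 0.43, and within clusters 0.03 and -0.32. For Nt5e and the interferon-response genes it was 0.17 and -0.11, a difference of 0.28, and within clusters 0.17 and -0.20. For Cd47 and the hypoxia genes it was 0.08 and -0.32, a difference of 0.40, and within clusters 0.05 and -0.13.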

How the results depend on the processing

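Over 7 alternatives, the log2 ratio of cGAMP over PBS kept its direction for all 6 members. Because counting intervals are narrow at this depth, 24 of 42 values left the interval of the reported ratio. With the mean of per-cell CPM the ratio was 1.75 for Cd274, 0.39 for Cd47 and -0.24 for Entpd1. With median-of-ratios scaling it was 0.62 for Lgals9, -0.037 for Pvr, 0.50 for Cd47, 0.59 for Nt5e and -0.13 for Entpd1, the whole shift being 0.08. With cluster proportions held it was 0.61 for Lgals9, 0.31 for Cd47 and -0.36 for Entpd1. Without the cells that hold a UMI of Ptprc, Tyrobp, Fcer1g, Cd68 or S100a8, which left 1817 PBS and 614 cGAMP cells, it was 1.57 for Cd274, 0.35 for Cd47, 0.59 for Nt5e and -0.16 for Entpd1. With Ptprc, Tyrobp, C1qa or S100a8 in their place, an alternative chosen after seeing the data, it was 1.61 for Cd274, 0.36 for Cd47 and 0.46 for Nt5e. A mitochondrial limit of 5% gave -0.18 for Pvr, 0.45 for Cd47 and -0.10 for Entpd1, and thinning to 5000 UMIs 0.52 for Lgals9, 0.40 for Cd47 and -0.25 for Entpd1. Cd274 was the 1 member past 2-fold without a filter on low genes, and also the 1 past a fold of 1.5. The share of all genes at these settings is not available, so these counts say nothing about the members as a set.

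The log2 ratio of the highest over the lowest cluster, averaged over the libraries, was 3.18 for Cd274, where the lowest PBS cluster held 1 UMI, 1.20 for Lgals9, 1.88 for Pvr, 1.10 for Cd47, 1.63 for Nt5e and 1.98 for Entpd1, and 16 of 30 alternatives left its counting interval. At resolution 0.3, which gave 4 clusters, it was 1.65, 0.74, 0.44, 0.76, 0.36 and 1.36 in the same order. Without integration it was 1.73 for Cd274, 0.59 for Pvr and 0.64 for Nt5e, and at resolution 0.8 it was 1.54 for Lgals9 and 2.28 for Entpd1. Over the 5 largest clusters alone it was 0.74 for Lgals9, 0.36 for Pvr, 0.76 for Cd47, 0.39 for Nt5e and 1.30 for Entpd1. The cause of these shifts was not tested. No paired analysis was possible because each condition had 1 library.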

Other observations

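Over the 16 profiles of 8 clusters in each library, which share their libraries and depth, Cd274 and Lgals9 had the highest Pearson's r of the 15 pairs of members, at 0.81, or 0.41 over the 8 PBS profiles and 0.73 over the 8 cGAMP profiles alone. Nt5e and Entpd1 had an r of 0.01, and of 0.09 and 0.10 within the libraries. Lgals9 and Entpd1 had an r of -0.51, or -0.28 and -0.82 within the libraries, and Pvr and Nt5e one of -0.53, or -0.71 and -0.38. These values describe the profiles and were not tested.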
